A study of Homo sapiens with 38 samples.

Results

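Naive Shef6 cells that had been placed in E8 medium were compared between day 6 and day 8. Shef6 is an established human embryonic stem cell line. The cells had been adapted to a serum coating and kept in PXGL, a medium that holds pluripotent cells in the naive state, and were then plated on Geltrex, a basement membrane extract, for the change of medium. The step was taken as the libraries titled E8 d8 on Geltrex (2) against those titled E8 d6 on Geltrex (2), which are 4 of the 38 libraries of the series. RNA was read by 3′ tag sequencing, in which each transcript gives reads close to its polyadenylated end. Side by side stand the same step in N2B27, a basal medium without added growth factors (2 libraries at day 6 and 2 at day 8), the same step in mTeSR, a complete medium for primed cells (2 and 2), and E8 at day 4 (2 libraries). All of these groups share the line, the Geltrex surface and the experiment, named Ex1 in the labels, and no genetic change is named for any of them. Replicates are parallel libraries of this 1 experiment. Most legends of the study call them technical replicates, and a legend on the N2B27 libraries calls them biological. Whether they came from separate cultures is not settled by the sources used here, so p-values measure only the spread between such libraries, which may be technical.

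Naive pluripotent cells resemble the epiblast before implantation. When naive medium is withdrawn they pass through capacitation, in which the naive programme is shut down and a formative or primed programme, able to answer lineage signals, is installed. E8 is a defined medium that carries insulin, FGF2 and TGFβ, ligands that sustain primed pluripotency through the ERK and SMAD pathways. The comparison asks what still changed in E8 late in this transition.

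The 4 libraries held 4180778 to 5350385 counts and were scaled by TMM factors, with levels given as CPM. Of 16674 genes tested with edgeR's quasi-likelihood test, 134 (0.804%) were called, meaning a Benjamini-Hochberg adjusted p-value under 0.05 and an absolute log2 fold change above 1. The called genes comprised 86 higher at day 8 (0.516%) and 48 lower (0.288%). At any fold 416 genes (2.49%) passed the adjusted test, of which 203 (1.22%) were higher and 213 (1.28%) lower. In the same medium, the preceding step from day 4 to day 6 gave 419 calls (2.51%), with 329 higher (1.97%) and 90 lower (0.54%). The day 6 to day 8 step gave 239 calls in N2B27 (1.43%), with 195 higher (1.17%) and 44 lower (0.264%). In mTeSR it gave 163 (0.978%), with 103 higher (0.618%) and 60 lower (0.36%).

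The day 8 libraries of E8 stood apart from each other. In replicate 1 of E8 day 8, 131 genes at a mean of 10 CPM or more were over 2-fold above replicate 2 and 33 were over 2-fold below it, while the day 6 libraries differed in this way at 4 and 3 genes. Of those 131 genes, 49 are annotated as pseudogenes. The E8 day 3 pair, which enters the fit only for the spread, differed likewise, with 175 genes over 2-fold higher in replicate 1, 47 of them pseudogenes, and 96 over 2-fold lower. Pairs of N2B27 differed as well, with 41 genes over 2-fold higher and 154 lower in replicate 1 at day 2. At day 3 of N2B27 these numbers were 56 and 89. Those pairs too enter the fit for the spread. Among the 86 genes called higher, 17 were pseudogenes (0.102% of the genes tested), and 16 of these were over 2-fold higher in replicate 1 than in replicate 2. Of the 54 protein-coding genes called higher, 1 was over 2-fold higher in replicate 1. Both day 8 libraries lay above both day 6 libraries for 53 of these 54 and for 12 of the 17 pseudogenes. The genes were called from these same libraries, so this agreement is partly built in by the choice and is no separate evidence for the calls. For all genes tested, both libraries of one day lay apart from both of the other in 44.9% (21.5% higher and 23.3% lower at day 8).

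**Figure D1:**
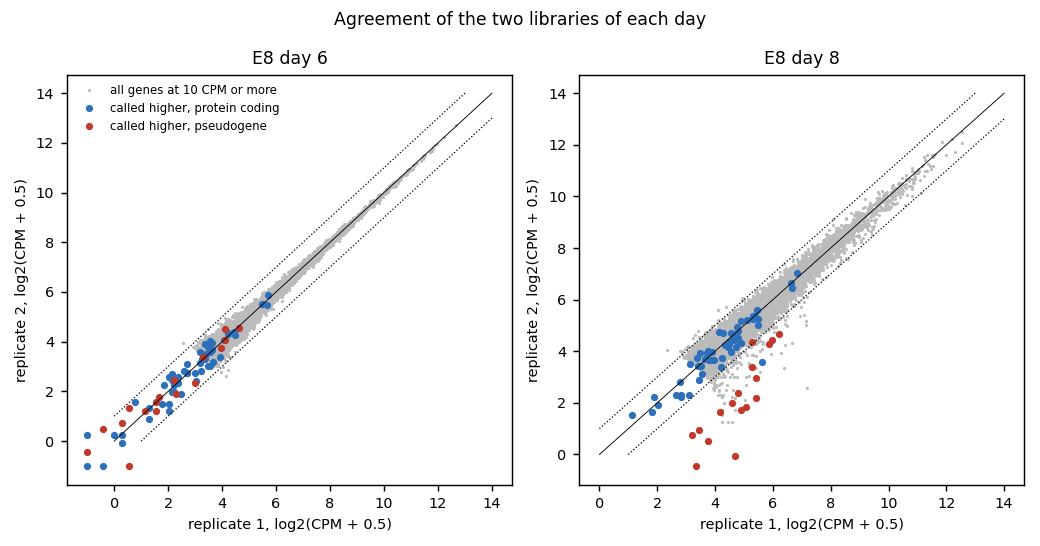
Level of each gene in replicate 1 (x axis) and replicate 2 (y axis) of E8 day 6 and E8 day 8, both as log2(CPM + 0.5). Grey points are genes at 10 CPM or more, blue points the 54 protein-coding genes and red points the 17 pseudogenes called higher at day 8, the solid line marks equal levels and the dotted lines a 2-fold difference. At day 8 nearly all red points lie to the right of the lower dotted line, and the blue points lie along the diagonal.

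The number of calls rested on single libraries. There were 33 calls without replicate 1 of day 8 (19 higher, 14 lower), with no pseudogene among the higher calls that were kept, and 466 without replicate 2 of day 8 (300 higher, 166 lower). Leaving out replicate 1 or replicate 2 of day 6 gave 44 and 40 calls. With the spread estimated from these 4 libraries alone, 2 genes were called, NLRP7 and KHDC1L, both lower. Whichever of the 4 libraries was left out, 8 of the 86 higher genes (CDH2, CYP26A1, GPC6, INHBE, MAGI2, MARCKS, SOX17 and STC1) and 9 of the 48 lower genes (CCDC81, IGSF1, KHDC1L, MAGEB2, NLRP7, SFN, SULT1A4, SUSD2 and TOX2) stayed called. All of these are protein coding, CCDC81, IGSF1 and SULT1A4 are named after their values were seen, and SULT1A4 has a near-identical copy, so that reads can be split between the pair. Calls and passes that were lost without replicate 1 of day 8 are therefore named beside the results.

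Several naive markers fell. NLRP7, a NOD-like receptor of the oocyte and early embryo (GRCh38 chromosome 19, 54923509 to 54966312, minus strand), stood at 759 and 692 CPM at day 6 and at 297 and 323 CPM at day 8. It fell by 1.23 on the log2 scale (SE 0.107, edgeR adjusted p = 1.4e-08). KHDC1L, a KH-domain gene of the early embryo (chromosome 6, 73223544 to 73225770, minus strand), went from 144 and 125 CPM to 46.6 and 49.2 CPM, a fall of 1.49 on the log2 scale (SE 0.167, adjusted p = 2.1e-06). For both genes the 2 days were far apart compared with the spread of their libraries. SUSD2, a surface protein by which naive cells can be sorted (chromosome 22, 24181487 to 24189106, plus strand), stood at 29.5 and 29.6 CPM and then at 11.99 and 11.8 CPM (log2 fold change -1.31, SE 0.219, adjusted p = 0.00072). OOEP, a component of the subcortical maternal complex (chromosome 6, 73368555 to 73395133, minus strand), went from 24.9 and 22.5 CPM to 9.18 and 13.2 CPM (log2 fold change -1.10, SE 0.242, adjusted p = 0.0095), and without replicate 1 of day 8 its change was -0.84 (adjusted p = 0.33).

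**Figure D2:**
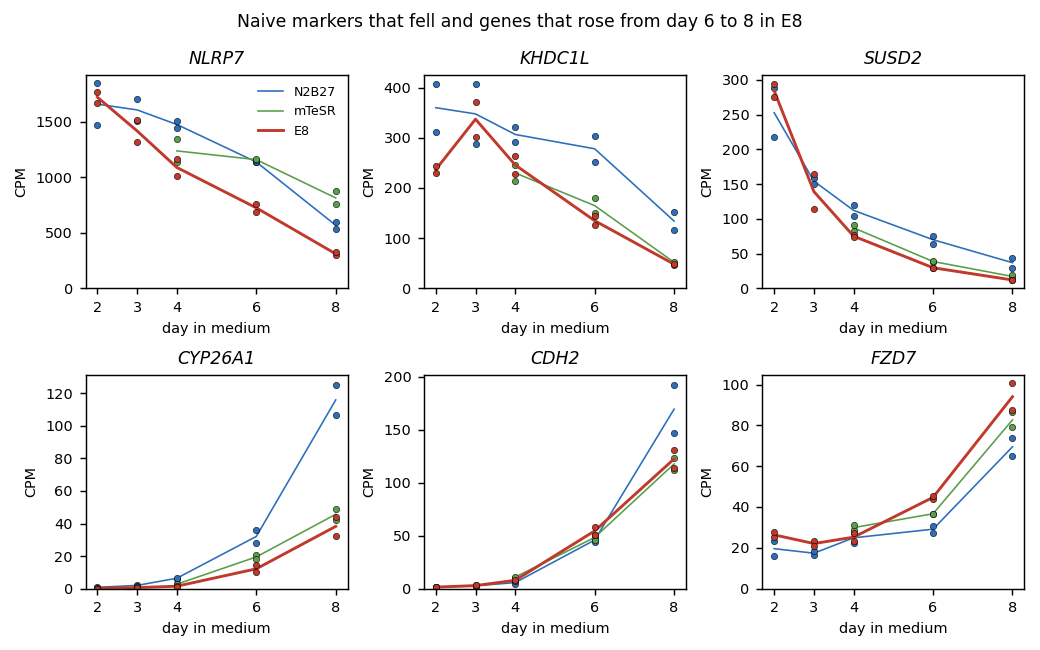
Levels in CPM (y axis, linear, from 0) of 3 naive markers and 3 genes that rose, against day in medium (x axis), for E8, N2B27 and mTeSR. Points are single libraries and lines join the means of 2. From day 6 to day 8 NLRP7, KHDC1L and SUSD2 fell and CYP26A1, CDH2 and FZD7 rose in E8, with no overlap between the libraries of the 2 days.

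Of 17 naive markers tested, 4 were called lower and none higher, 7 passed the adjusted test downwards at any fold, and the median log2 fold change was -0.51 against -0.0023 for all genes. Over all genes tested, 0.288% were called lower and 1.28% passed downwards at any fold. TFCP2L1, a transcription factor of the naive network, went from 99.98 and 97.4 CPM to 62.6 and 68.99 CPM (log2 fold change -0.59, adjusted p = 0.0065). DNMT3L, a cofactor of the de novo DNA methyltransferases, went from 47.8 and 56.7 CPM to 34.7 and 30.1 CPM (log2 fold change -0.69, adjusted p = 0.017). Without replicate 1 of day 8 neither passed (adjusted p = 0.20 and 0.10), and 3 members of the list still did, NLRP7, KHDC1L and SUSD2. The list did not move as a block. DPPA5 was at 212 and 193 CPM and then at 235 and 181 CPM (log2 fold change 0.04), DPPA3 changed by -0.07 and KLF17 by -0.13, and KLF4 went from 43.5 and 40.98 CPM to 64.8 and 57.9 CPM (log2 fold change 0.54, adjusted p = 0.075). The median of the list was -0.52 and 3 members were called lower without replicate 1 of day 8. Several of these markers were shown by the study on N2B27 libraries of this series. The list was also written with earlier results of these data known, so its direction is not independent evidence.

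No general pluripotency marker of 13 tested was called, and the median log2 fold change was -0.039. POU5F1 stood at 485 and 524 CPM at day 6 and at 270 and 561 CPM at day 8, with the low value in replicate 1, and the days overlapped. NANOG was at 956 and 925 CPM and then at 867 and 878 CPM (log2 fold change -0.11, adjusted p = 0.67), and SOX2 at 275 and 304 CPM and then at 297 and 387 CPM (0.24, adjusted p = 0.30). LIN28B, which blocks maturation of let-7 microRNAs, passed the test with a smaller fold (342 and 342 CPM to 260 and 237 CPM, log2 fold change -0.46, adjusted p = 0.0052). TDGF1, a co-receptor for Nodal, passed upwards (247 and 260.0 CPM to 432 and 301 CPM, 0.53, adjusted p = 0.017) and no longer did when replicate 1 of day 8 was left out (adjusted p = 0.64).

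Of 16 primed or formative markers tested, 2 were called higher and none lower, 3 passed upwards at any fold, and 13 had a log2 fold change above 0 (median 0.30). Over all genes tested, 0.516% were called higher and 1.22% passed upwards at any fold, with a median of -0.0023. CDH2, the N-cadherin of primed cells and of mesenchymal and neural tissue (chromosome 18, 27932879 to 28177946, minus strand), went from 50.96 and 57.8 CPM to 114 and 131 CPM (log2 fold change 1.17, SE 0.150, adjusted p = 2.1e-05), and without replicate 1 of day 8 its change was 1.27 (adjusted p = 0.00016). ZIC5, a zinc finger transcription factor, went from 4.59 and 5.46 CPM to 13.9 and 12.0 CPM (log2 fold change 1.36, SE 0.318, adjusted p = 0.016), a call that was lost without that library (1.25, adjusted p = 0.22). OTX2, a homeobox factor of the formative epiblast, went from 11.4 and 12.3 CPM to 20.2 and 20.96 CPM, under the fold threshold (log2 fold change 0.80, adjusted p = 0.033; without replicate 1 of day 8, adjusted p = 0.22). DNMT3B and PODXL, already high at day 6 (967 and 954 CPM, 773 and 766 CPM), changed by -0.06 and 0.24 on the log2 scale.

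**Figure D3:**
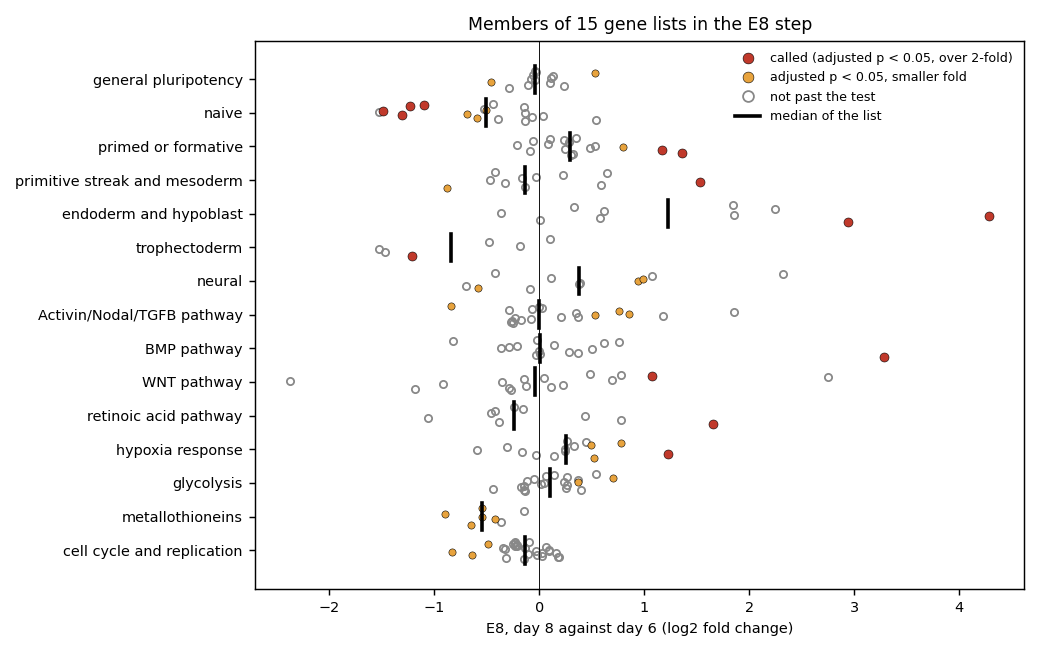
Log2 fold change of day 8 against day 6 in E8 (x axis) for each tested member of 15 gene lists (y axis). Filled red points were called, filled yellow points passed the adjusted test with a smaller fold, open points did not pass, and black bars are list medians. The naive and metallothionein medians lie at -0.51 and -0.54, that of the primed or formative list at 0.30, and that of general pluripotency at -0.04.

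Among the genes with a mean of at least 20 CPM at day 8 and a full gene symbol, the largest rise was that of CYP26A1, a cytochrome P450 that degrades retinoic acid and is itself a classical target of retinoic acid receptors (chromosome 10, 93073475 to 93077885, plus strand). It stood at 9.90 and 14.3 CPM at day 6 and at 44.2 and 32.3 CPM at day 8, 3.15-fold higher (log2 fold change 1.66, SE 0.236, adjusted p = 0.00012), and the change without replicate 1 of day 8 was 1.41 (adjusted p = 0.013). It was the 1 called gene of 9 tested in the retinoic acid list, whose median was -0.24. CRABP2, DHRS3 and RARG, other genes of that pathway, changed by -0.16, -0.46 and -1.06 with adjusted p-values of 0.79, 0.57 and 0.13. The window from 250 bases before to 50 bases after the CYP26A1 start site (RefSeq, GRCh38.p14) held 1 copy of the retinoic acid direct repeat, spelled as the half-sites GTTCA and AGTTCA with 5 bases of any kind between them and searched on both strands. The 30 bases around it, chr10:93073796-93073825 on the plus strand, are shown because this gene led the step, with the match in capitals. They lie in the 5′ exon of a longer annotated transcript of the same gene.
CYP26A1: ttaaagaTGAACTTTGGGTGAACtaattgt
The match begins 90 bases before the start site. The repeat was held by 11 of 27305 genes with a promoter window (0.0403%), and by 2 of 10 retinoic acid genes, CYP26A1 and RARB. A match describes the letters and not an occupied site. This motif and its spelling were chosen after the values were seen, so nothing is read from these shares.

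The other genes chosen by the size of their rise were grouped by what they encode, and these groups were not tested. COL5A2, a fibrillar collagen chain, went from 8.69 and 6.60 CPM to 21.7 and 19.1 CPM (log2 fold change 1.42, SE 0.278, adjusted p = 0.0032). DDR2, a receptor tyrosine kinase for collagen, went from 11.4 and 11.4 CPM to 26.6 and 29.9 CPM (1.31, SE 0.263, adjusted p = 0.0039). EFNA5, an ephrin ligand in axon guidance, went from 8.94 and 9.33 CPM to 29.2 and 19.5 CPM (1.42, SE 0.275, adjusted p = 0.0028). For these genes, as for all chosen by this rule, the libraries of the 2 days do not overlap by the terms of the rule. MAGI2, a scaffold of cell junctions and synapses, rose from 10.6 and 13.2 CPM to 29.2 and 35.1 CPM (1.42, SE 0.219, adjusted p = 0.00036), and NELL2, a secreted neural glycoprotein, from 8.45 and 8.42 CPM to 18.9 and 25.4 CPM (1.38, SE 0.263, adjusted p = 0.0025). INHBE, an inhibin beta chain, rose from 16.2 and 16.4 CPM to 38.97 and 37.9 CPM (1.24, SE 0.210, adjusted p = 0.00097). NECAB1, SHISA9 and B3GALT1 were called as well, with log2 fold changes of 1.38, 1.29 and 1.24. HSP90AA5P, a pseudogene of a heat shock protein, met the same rule from 1 library alone, with 9.18 and 9.79 CPM at day 6 and 38.03 and 9.89 CPM at day 8, and without that library its change was 0.06. Without replicate 1 of day 8, COL5A2, EFNA5, SHISA9 and B3GALT1 also lost their calls (log2 fold changes 1.09 to 1.38), whereas CYP26A1, MAGI2, NECAB1, NELL2, DDR2 and INHBE remained called. NELL2 and DDR2 lost their calls when either day 6 library was left out and with DESeq2, NECAB1 without replicate 1 of day 6, and INHBE with DESeq2. 3 further genes that met the rule bear only clone names and are not described.

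Beyond the naive markers, SFN, the epithelial 14-3-3 protein sigma, went from 82.1 and 69.4 CPM to 26.4 and 36.7 CPM (log2 fold change -1.27, SE 0.167, adjusted p = 2.7e-05). GPRC5A, an orphan receptor known as inducible by retinoic acid, went from 95.4 and 99.0 CPM to 39.9 and 50.9 CPM (-1.11, SE 0.116, adjusted p = 6.8e-07). TOX2, a high mobility group factor, went from 41.3 and 46.9 CPM to 18.5 and 21.4 CPM (-1.15, SE 0.179, adjusted p = 0.00042). NEFH, the heavy neurofilament chain, went from 40.8 and 48.5 CPM to 22.9 and 19.5 CPM (-1.07, SE 0.172, adjusted p = 0.00052). FAM9C, PRAMEF11 and FOXO6 were called with -1.36, -1.02 and -1.31, and ARHGAP18 was called just past the fold threshold (27.05 and 23.4 CPM to 11.6 and 13.7 CPM), a call that was lost under RLE scaling and under plain library totals. PRAMEF11 belongs to a cluster of near-identical genes, among which reads can be split, so its value is uncertain. SNORD13, a small nucleolar RNA, went from 28.3 and 28.0 CPM to 6.37 and 10.4 CPM (-1.77, SE 0.298, adjusted p = 0.00076), and such RNAs are mostly without the poly(A) tail on which these libraries were primed. Without replicate 1 of day 8, NLRP7, KHDC1L, SUSD2, SFN, TOX2 and NEFH remained called, though NEFH lost its call without replicate 2 of day 8 or of day 6. The other 8 were not. GPRC5A missed only the fold threshold (-0.93, adjusted p = 0.00040), and FAM9C, FOXO6, SNORD13, PRAMEF11 and ARHGAP18 no longer passed the test, with changes of -1.25, -1.18, -1.44, -0.96 and -0.88 and adjusted p-values of 0.15, 0.30, 0.078, 0.21 and 0.20.

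Markers of other lineages were taken as lists. In bulk RNA, fewer cells of a type and less RNA per cell cannot be told apart. The 10 tested endoderm and hypoblast markers summed to 38.4 and 33.5 CPM at day 6 and to 62.4 and 49.4 CPM at day 8, with a median log2 fold change of 1.23, which was 0.62 with genes near the floor of 3 counts a library set to their bound. SOX17, a factor of definitive endoderm and hypoblast, had 3 and 3 counts at day 6 and 35 and 19 at day 8, at least 7.61-fold higher over the floor. FOXA2, a pioneer factor of endoderm, had 1 and 0 counts and then 16 and 11, at least 3.86-fold higher. GATA6 and PDGFRA stood at 2.59 to 5.25 CPM at day 8 and were not called (adjusted p = 0.55 and 0.46). The call of SOX17 was kept (adjusted p = 0.029) and that of FOXA2 lost (adjusted p = 0.069) when replicate 1 of day 8 was left out, and with DESeq2 that of SOX17 was lost.

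The 11 tested primitive streak and mesoderm markers summed to 108 and 114 CPM and then to 101 and 110 CPM. Within that list LHX1, a LIM homeobox factor of the organizer and mesoderm, went from 3.86 and 3.41 CPM to 10.7 and 10.4 CPM (log2 fold change 1.53, SE 0.428, adjusted p = 0.048; without replicate 1 of day 8, adjusted p = 0.32). TBXT (brachyury) moved the other way, from 29.7 and 27.1 CPM to 14.4 and 16.5 CPM (-0.88, adjusted p = 0.036, under the fold threshold; without replicate 1 of day 8, -0.78 and adjusted p = 0.37). EOMES and MIXL1 changed by 0.59 and -0.13 and did not pass the test.

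Of 6 trophectoderm markers tested 1 was called, beside 0.804% of all genes tested. GATA3, a factor of trophectoderm and amnion (chromosome 10, 8045378 to 8075198, plus strand), went from 28.7 and 28.9 CPM to 10.3 and 14.8 CPM (log2 fold change -1.21, SE 0.238, adjusted p = 0.0032), and without replicate 1 of day 8 its change was -0.96 (adjusted p = 0.20). The list summed to 60.9 and 61.5 CPM at day 6 and to 36.2 and 36.5 CPM at day 8. VGLL1 and HAVCR1 were at 0 in all 4 libraries, and CDX2 and CGA were under 1 CPM in each. The 6 amnion markers summed to 19.7 to 21.9 CPM in the 4 libraries with no call. Neural markers (11 tested, no call) summed to 261 and 267 CPM and then to 308 and 294 CPM, with EDNRB and NTS past the test under the fold threshold (0.99 and 0.94, adjusted p = 0.0057 and 0.0015) and SOX3 lower (-0.58, adjusted p = 0.047). None of these 3 passed when replicate 1 of day 8 was left out (adjusted p = 0.14, 0.12 and 0.41). The part of such cells in the other results was not tested.

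Signalling genes gave few calls. In the WNT list (16 tested, median -0.043) FZD7, a receptor for WNT ligands (chromosome 2, 202033855 to 202038441, plus strand), rose from 43.95 and 45.5 CPM to 101 and 87.6 CPM (log2 fold change 1.07, SE 0.145, adjusted p = 4.5e-05), and it was 0.97 without replicate 1 of day 8 (adjusted p = 0.0043). AXIN2 and SP5, direct targets of the pathway, changed by 0.11 and 0.23 with adjusted p-values of 0.87 and 0.74. In the BMP list (15 tested, median 0.0041) the ligand gene BMP2 was called from 0 and 3 counts at day 6 to 17 and 18 at day 8, at least 5.12-fold higher over the floor, a call that was lost without replicate 1 of day 6 (adjusted p = 0.19). BMP4, the ligand at the highest level, stood at 216 and 213 CPM and then at 215 and 206 CPM, and its target ID1 at 102 and 99.7 CPM and then at 137 and 123 CPM (0.37, adjusted p = 0.13).

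The 19 tested genes of the Activin, Nodal and TGFβ pathway gave no call (median -0.0044). LEFTY1, a Nodal antagonist and target, rose from 94.4 and 102 CPM to 198 and 156 CPM (0.86, adjusted p = 0.0041), and FST, which binds Activin, from 21.98 and 21.2 CPM to 39.7 and 33.2 CPM (0.76, adjusted p = 0.049). NODAL itself changed by -0.25 (adjusted p = 0.47). Without replicate 1 of day 8 the adjusted p-values of LEFTY1 and FST were 0.20 and 0.47. Of 16 FGF/ERK targets none was called (median -0.049), and 1 passed upwards and 2 downwards at any fold, beside 1.22% and 1.28% of all genes tested. IER3, an immediate early gene, went from 128 and 124 CPM to 46.6 and 87.8 CPM (-0.92, adjusted p = 0.0083), DUSP5, an ERK phosphatase, changed by -0.46 (adjusted p = 0.019) and ETV1, an ETS factor, by 0.50 (adjusted p = 0.034). None of these 3 passed when replicate 1 of day 8 was left out (adjusted p = 0.41, 0.23 and 0.45). DUSP6, a phosphatase that limits ERK, changed by 0.18 (adjusted p = 0.63).

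Of the metabolic and stress lists, that of hypoxia held the 1 call. Among its genes (14 tested, median 0.26) EGLN1, the oxygen-sensing prolyl hydroxylase that marks HIF for degradation, was called from 11.1 and 7.51 CPM to 25.7 and 17.4 CPM (1.22, SE 0.269, adjusted p = 0.0092). BNIP3, a mitophagy receptor, went from 330 and 288 CPM to 458 and 429 CPM (0.52, adjusted p = 0.019), P4HA1, a collagen prolyl hydroxylase, from 127 and 127 CPM to 176 and 180 CPM (0.49, adjusted p = 0.0029), and PDK1, which restrains pyruvate oxidation, from 20.3 and 17.3 CPM to 33.5 and 30.6 CPM (0.77, adjusted p = 0.040). LDHA rose from 524 and 471 CPM to 907 and 712 CPM (0.70, adjusted p = 0.020) in a glycolysis list of 20 with a median of 0.10. Other hypoxia genes did not pass, with VEGFA at 0.25, SLC2A1 at 0.07 and ANKRD37 at -0.59. Without replicate 1 of day 8, P4HA1 still passed (0.51, adjusted p = 0.035) and EGLN1, BNIP3, PDK1 and LDHA did not (adjusted p = 0.33, 0.25, 0.35 and 0.39). In N2B27 the same step gave EGLN1 -0.22, BNIP3 -0.39, P4HA1 -0.17 and PDK1 -0.16, and in mTeSR 0.40, 0.37, 0.68 and 0.48.

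The core of the hypoxia response element, ACGTG on either strand, was present in the promoter windows of 9 of 13 hypoxia genes (69.2%) and of 24.9% of all genes. The list was compiled from known HIF targets, so nothing is read from this difference. The 4 members past the test are shown, each with 30 bases from the gene's own strand and the matches in capitals, at chr1:231422288-231422317 (EGLN1, minus), chr10:131982040-131982069 (BNIP3, minus), chr10:73096936-73096965 (P4HA1, minus) and chr2:172556060-172556089 (PDK1, plus), all GRCh38.p14.
EGLN1: ccgcggggccgtggtgtACGTGcagagcgc
BNIP3: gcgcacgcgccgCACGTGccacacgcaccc
P4HA1: gtgtgatcgagctCACGTagcgagggctgc
PDK1: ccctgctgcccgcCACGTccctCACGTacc
The matches begin 13, 134, 86 and 17 bases before the start site, and those of BNIP3 and PDK1 count 2 each, which overlap in BNIP3 as 1 palindrome. By the annotated gene bounds, the stretch of P4HA1 lies inside the gene, which reaches to 73096974. That of PDK1 also lies inside its gene, which begins at 172555373.

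Metallothioneins, zinc-binding proteins that respond to metals, were lower at day 8. All 7 tested had a log2 fold change below 0 (median -0.54), and 5 passed the test at any fold with no call. Over all genes tested, 1.22% passed upwards and 1.28% downwards at any fold, with a median of -0.0023. MT2A went from 474 and 449 CPM to 325 and 308 CPM (-0.54, adjusted p = 0.0019) and MT1G from 1071 and 1006 CPM to 832 and 719 CPM (-0.42, adjusted p = 0.010). MT1G, MT1H and MT2A still passed when replicate 1 of day 8 was left out, and MT1E and MT1M did not (adjusted p = 0.15 and 0.063). Members of this family are near-identical in sequence and reads may be split between them. The median of the metallothioneins was -0.35 in N2B27 and -0.55 in mTeSR. Of 26 cell cycle genes 3 passed downwards at any fold, CCND3 (28.0 and 28.5 CPM to 16.9 and 14.8 CPM, -0.83, adjusted p = 0.0014), CCNE1 (-0.64, adjusted p = 0.025) and AURKB (-0.49, adjusted p = 0.025), and 18 were below 0. When replicate 1 of day 8 was left out CCND3 still passed (adjusted p = 0.017) and CCNE1 and AURKB did not (adjusted p = 0.34 and 0.46). No gene was called among 24 of sterol synthesis, 22 of the ATF4 stress response, 19 p53 targets, 13 cytochrome c oxidase subunits, 21 matrix and integrin genes or 12 imprinted genes. In these lists 5 genes passed upwards and 2 downwards at any fold, of which ATF5 alone still passed when replicate 1 of day 8 was left out. The 13 mitochondrially encoded genes summed to 20134 and 19936 CPM at day 6 and to 19421 and 15611 CPM at day 8.

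The steps of the other media rest on other libraries, so they can be set beside the E8 step. Of the 86 genes called higher in E8, 17 were called higher in N2B27 (19.8% of the E8 genes, 8.72% of the N2B27 genes) and 24 in mTeSR (27.9% and 23.3%), where 1.17% and 0.618% of all tested genes were called higher. Of the 48 called lower, 8 were called lower in N2B27 (16.7% and 18.2%) and 13 in mTeSR (27.1% and 21.7%), against 0.264% and 0.36% of all genes. All of the shared higher genes were protein coding. With all libraries, 15 genes were called higher in all 3 media, namely BMP2, CDH2, COL5A2, CST4, CYP26A1, EFNA5, ERBB4, FOXA2, FZD7, GPC6, LHX1, MARCKS, RHOBTB3, SOX17 and STC1, and 3 lower, namely GPRC5A, KHDC1L and MAGEB2.

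Several of these genes were named after their values were seen. GPC6, a cell surface heparan sulfate proteoglycan, went in E8 from 6.04 and 6.15 CPM to 23.0 and 15.3 CPM (1.66, adjusted p = 0.00051) and changed by 1.11 in N2B27 and 1.38 in mTeSR. MARCKS, a membrane substrate of protein kinase C, went from 18.1 and 19.3 CPM to 39.3 and 40.97 CPM (1.10, adjusted p = 0.0014) and changed by 1.81 and 1.72. STC1, a secreted glycoprotein hormone, went from 4.11 and 3.41 CPM to 13.1 and 15.5 CPM (1.92, adjusted p = 0.00085) and changed by 2.17 and 1.96. These 3 kept their calls in E8 without replicate 1 of day 8, and GPC6 and STC1 lost them with DESeq2. MAGEB2, a cancer-testis antigen gene on the X chromosome, fell from 8.21 and 9.79 CPM to 1.31 and 1.41 CPM (-2.71, adjusted p = 8.7e-06) and changed by -1.73 in N2B27 and -1.999 in mTeSR. CST4 and ERBB4 were at or under the floor at day 6 and lost their E8 calls without replicate 1 of day 8 (adjusted p = 0.080 and 0.27), as did COL5A2, EFNA5, FOXA2, FZD7, LHX1 and GPRC5A, and CST4 resembles other cystatin genes, among which reads can be split.

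**Figure D4:**
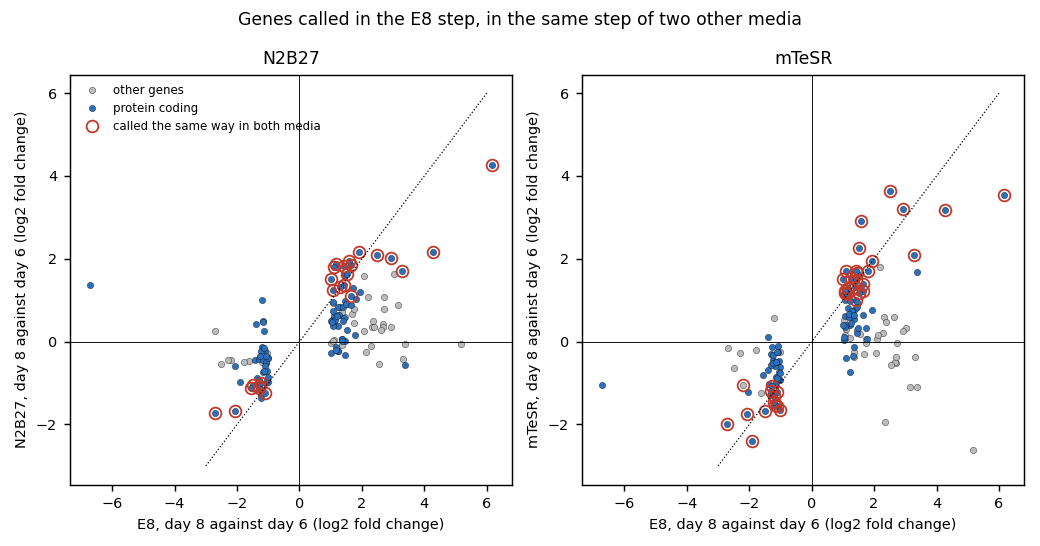
Log2 fold change of day 8 against day 6 in E8 (x axis) and in N2B27 or mTeSR (y axis) for the 134 genes called in E8. Blue points are protein coding, grey points are other genes, red rings mark genes called the same way in both media, and the dotted line marks equal change. Ringed points are all blue among the risers. Above 0 lie 71 of 86 risers in N2B27 and 67 in mTeSR, and of the 54 protein-coding risers 47 and 50.

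The E8 step differed from that of N2B27, by the interaction term, at 18 genes (0.108%), with the change more positive in E8 at 2 (0.012%) and more negative at 16 (0.096%). This split was 53 and 49 without replicate 2 of E8 day 8, and 40 and 66 with no filter. GATA3 was called in opposite directions. It fell in E8 as above, while in N2B27 it rose from 18.1 and 18.1 CPM to 39.4 and 33.96 CPM (log2 fold change 1.01, adjusted p = 0.0053), so that the steps differed by -2.22 (SE 0.325, adjusted p = 0.00085). In mTeSR it fell as in E8, from 12.8 and 12.7 CPM to 4.89 and 5.32 CPM (-1.32, adjusted p = 0.015).

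The ligand gene BMP4 went from 77.7 and 81.0 CPM to 172 and 156 CPM in N2B27 and was not called in E8 (difference -1.07, SE 0.181, adjusted p = 0.0038). In E8 this gene was already at 216 and 213 CPM at day 6, above N2B27 at day 8. ID2, an inhibitor of basic helix-loop-helix factors, went from 41.7 and 39.1 CPM to 150 and 104 CPM in N2B27 and from 22.9 and 27.3 CPM to 32.2 and 28.96 CPM in E8 (difference -1.37, SE 0.243, adjusted p = 0.0069). TBX3, a T-box factor, went from 58.97 and 54.4 CPM to 148 and 113 CPM in N2B27 and from 31.4 and 42.1 CPM to 23.6 and 31.8 CPM in E8 (difference -1.62, SE 0.242, adjusted p = 0.00085). ANKRD1, a YAP target in many cells, went from 7.29 and 7.66 CPM to 43.4 and 33.8 CPM in N2B27 and from 6.28 and 5.46 CPM to 2.62 and 3.53 CPM in E8 (difference -3.30, SE 0.477, adjusted p = 0.00085). For each of these genes both N2B27 libraries of day 8 lay above both of day 6. All 5 differences were called without replicate 1 of E8 day 8, whereas that of ID2 was lost without replicate 1 of N2B27 day 8, without replicate 2 of E8 day 6 and with the compared libraries alone, and that of ANKRD1 with DESeq2.

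**Figure D5:**
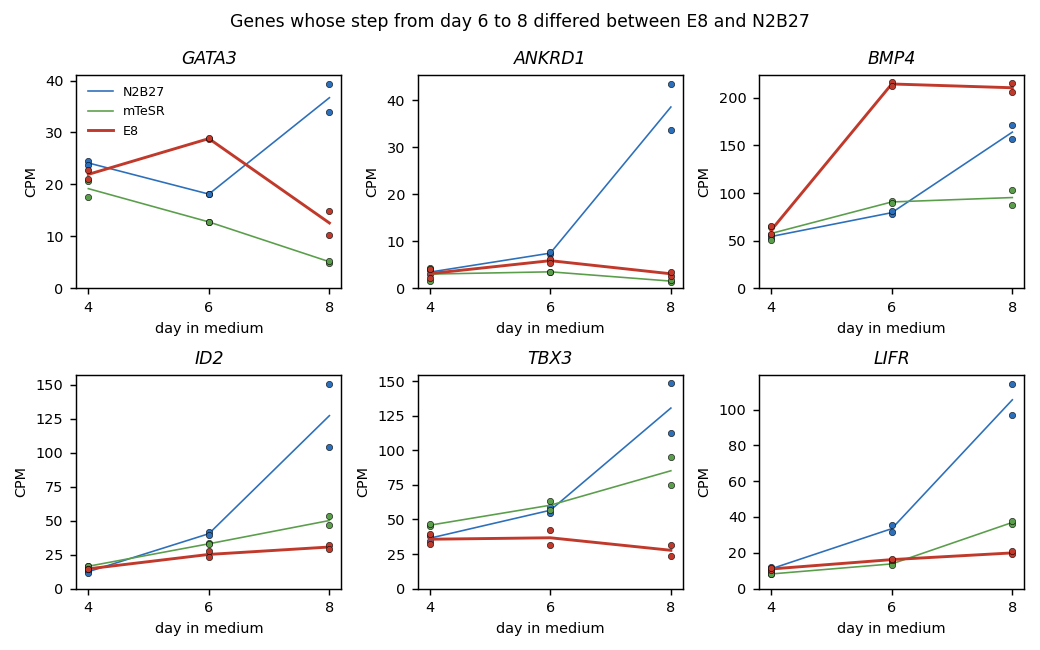
Levels in CPM (y axis, linear, from 0) of 6 genes at days 4, 6 and 8 (x axis) in E8, N2B27 and mTeSR, with single libraries as points and lines through the means of 2. The N2B27 lines turn up at day 8 for all 6, whereas the E8 line falls for GATA3 and ANKRD1 and stays level for BMP4.

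Outside the lists, LIFR, S100A14 and USP44 were named after their values were seen. LIFR, the receptor subunit for LIF, went from 31.5 and 35.5 CPM to 114 and 96.8 CPM in N2B27 and from 15.9 and 16.4 CPM to 19.1 and 20.7 CPM in E8 (difference -1.36, SE 0.238, adjusted p = 0.0062). This call was lost with the compared libraries alone, without replicate 2 of E8 day 6 and without replicate 1 of N2B27 day 6 or day 8 (highest adjusted p = 0.071). S100A14, an epithelial calcium-binding protein, went from 10.0 and 9.67 CPM to 33.5 and 37.8 CPM in N2B27 and from 7.97 and 8.65 CPM to 7.31 and 5.89 CPM in E8 (difference -2.18, adjusted p = 0.0025). USP44, a deubiquitinase of stem cells, moved the other way, from 162 and 163 CPM to 116 and 117 CPM in N2B27 and from 199 and 198 CPM to 297 and 295 CPM in E8 (difference 1.06, SE 0.170, adjusted p = 0.0024).

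Against mTeSR the E8 step differed at 8 genes (0.048%), with the change more positive in E8 at 7 (0.042%) and more negative at 1 (0.006%), a split that was 101 and 47 without replicate 2 of E8 day 8. INHBE rose in E8 as above and went from 22.6 and 23.1 CPM to 15.5 and 12.0 CPM in mTeSR (difference 1.97, SE 0.307, adjusted p = 0.0041). ATF5, a stress-responsive transcription factor, went from 55.3 and 56.2 CPM to 82.8 and 113 CPM in E8 and from 69.0 and 75.4 CPM to 42.9 and 42.5 CPM in mTeSR (difference 1.57, SE 0.227, adjusted p = 0.0015). ALDH1L2, a mitochondrial folate enzyme named after its values were seen, went from 12.1 and 10.5 CPM to 20.6 and 16.5 CPM in E8 and from 15.9 and 14.7 CPM to 8.96 and 6.996 CPM in mTeSR (difference 1.66, SE 0.289, adjusted p = 0.013). The ATF4 stress response list, which holds ATF5, had a median of 0.22 in E8, 0.18 in N2B27 and -0.28 in mTeSR. INHBE lost its call without replicate 2 of mTeSR day 8 (adjusted p = 0.11), and ALDH1L2 lost its call under 5 of 15 alternatives, with the highest adjusted p (0.16) without replicate 1 of E8 day 8.

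The change from day 4 to day 6 in E8 shares the day 6 libraries with the step described here, so its values are only set beside it. CYP26A1 changed by 3.07 and then 1.66 on the log2 scale, CDH2 by 2.80 and then 1.17 and COL5A2 by 1.52 and then 1.42. SUSD2 changed by -1.34 and then -1.31, KHDC1L by -0.87 and then -1.49, and NLRP7 by -0.59 and then -1.23. These genes kept their direction over both intervals. TBXT turned, from 3.97 and 5.72 CPM at day 4 to 29.7 and 27.1 CPM at day 6 and 14.4 and 16.5 CPM at day 8. FOXO6, a forkhead factor, stood at 11.7 and 8.09 CPM, then 21.98 and 23.9 CPM, then 8.43 and 10.1 CPM. Both of these turning genes were chosen after their values were seen.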

How the data were processed

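RNA of Shef6 cells was made into libraries with the QuantSeq 3′ kit and sequenced. The authors deposited 1 table of raw counts per gene, whole numbers with no normalisation, made per the labels and the study's methods with FastQC 0.11.9, STAR 2.7.10a and Salmon 1.9.0 on hg38, and summed to genes with tximport. No molecular identifiers are described in the sources used here. A floor of 3 counts a library (0.520 to 1.06 CPM over the 38 libraries) covers counting error only. The annotation release of the counting is not given in the sources used here, and names were matched to GENCODE release 44 for positions and gene types.

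Tests were run with edgeR 4.0.16 under R 4.3.3, using filterByExpr on 19 groups of 2 libraries, TMM scaling and quasi-likelihood F-tests, with the spread shared by all 38 libraries (biological coefficient of variation 10%, prior degrees of freedom 12.7). Benjamini-Hochberg adjustment ran over the 16674 genes of each comparison. A call needed an adjusted p-value under 0.05 and an absolute log2 fold change above 1, the thresholds of the study's methods. CPM used TMM-scaled totals, and SE was the log2 fold change over the root of F. The procedure was also run on counts simulated from its own fit to these libraries. That simulation held no deviating library, so it cannot show how the calls behave with one.

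Genes were named by rule: up to 15 with the largest rise and 15 with the largest fall among calls with a mean of 20 CPM or more in the higher group and no overlap between days, the genes of 36 lists, and up to 5 per direction with the largest interaction against each other medium among genes also called in the E8 step. Values of a few rule and list genes are left out here. Genes outside the rule are said to be named after their values were seen. The members, lists and tests were chosen with earlier results of these data known. The study's naive, XAV and FAX libraries entered the fit for the spread only. Replicate numbers were checked for pairing, which the check could not settle, and the libraries were treated as unpaired. Alternatives were other scalings and filters, a replicate block, the compared libraries alone, DESeq2 1.42.0 and leaving out each library.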

Additional observations from a re-analysis of the deposited data

Results flagged for a closer look

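These genes met a test of the difference between media, the interaction term of the same edgeR fit, among the genes of the lists and those named by rule. Genes named after their values were seen (LIFR, S100A14, USP44 and ALDH1L2) are not repeated here. No cause of these differences was tested.

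Against N2B27 the E8 step was lower by the following log2 amounts. For ANKRD1, a YAP target, the difference was -3.30 (edgeR adjusted p = 0.00085), and it was called under 14 of 15 alternatives, the exception being DESeq2. For GATA3 the difference was -2.22 (adjusted p = 0.00085), for TBX3 it was -1.62 (adjusted p = 0.00085) and for BMP4 it was -1.07 (adjusted p = 0.0038), and these 3 were called under all 15 alternatives. For ID2 the difference was -1.37 (adjusted p = 0.0069), called under 12 of 15. Both E8 day 8 libraries lay below both N2B27 day 8 libraries for ANKRD1, GATA3, ID2 and TBX3, and above them for BMP4.

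Against mTeSR the step was higher in E8 for ATF5, by 1.57 (adjusted p = 0.0015, called under 15 of 15), and for INHBE, by 1.97 (adjusted p = 0.0041, called under 14 of 15).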

How the results depend on the processing

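The E8 step of 134 calls depended most on which libraries entered. It gave 258 calls with no filter (184 higher, 74 lower), 70 with DESeq2 (32 higher) and 2 with the spread of the compared libraries alone (0 higher, 2 lower), whereas the same restriction gave 342 calls in N2B27, 240 in mTeSR and 625 from day 4 to day 6 of E8. Leaving out 1 library gave 33 to 466 calls, with 19 to 300 higher and 14 to 166 lower. The lowest count was without replicate 1 and the highest without replicate 2 of E8 day 8. Among protein-coding genes alone 54 were higher, a count added after the data were seen. The 14 called list genes became 2 with the compared libraries alone and 8 to 19 when 1 library was left out. The other steps gave with DESeq2 144 calls in N2B27, 107 in mTeSR and 265 from day 4 to day 6 of E8, and 121 to 194, 75 to 103 and 227 to 294 without single libraries. The difference from N2B27 (18 calls) gave 30 with RLE scaling, 106 with no filter, 8 with the compared libraries alone and 8 to 102 without single libraries. The difference from mTeSR (8 calls) gave 85 with no filter, 2 with the compared libraries alone, 15 with DESeq2 and 1 to 148 without single libraries. The cause of these shifts was not tested. With the replicate number as a block the E8 step gave 123 calls (78 higher, 45 lower). The deviations between replicates of days 6 and 8 correlated at 0.057 in E8, and at -0.543 to 0.446 over all pairs of Ex1 groups. The day 6 libraries of E8 hardly differed from each other, so this check cannot decide whether the numbers pair the libraries.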
